A study of Homo sapiens with 10 samples.

Results

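The transcripts described here encode the machinery that sorts cargo on endosomes, taken as 47 named genes out of 35606 genes listed in each of the study's expression tables. They were chosen by gene symbol from a list of complexes, drawn up with earlier results of these data known. Shares of the 47 genes set beside those of all genes are therefore not from a blind choice. The rule itself used measured values only for a minimum mean of 1 CPM (a normalized share of a library's reads), which kept all 47 in both tables. The list holds ESCRT-0 (3 genes), ESCRT-I (7), ESCRT-II (3), ESCRT-III (8), the VPS4 ATPases (2), retromer (4), sorting nexins (5), the HOPS and CORVET tethers (7), endosomal RAB GTPases with the tether EEA1 (6) and the cargo receptors M6PR and SORT1 (2).

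RNA-seq was made from 10 samples of QGP-1, an established line of human pancreatic neuroendocrine tumor cells, with 5 groups of 2 samples. In the knockdown table, cells carried dCas9-KRAB, a nuclease-dead Cas9 joined to a transcriptional repressor (CRISPR interference), with either the control guide sgNC or the single guide sgPIKFYVE-1, both delivered by lentivirus and selected with puromycin. In the drug table, cells received the vehicle DMSO, 1 µM apilimod, an inhibitor of the lipid kinase PIKfyve, or 100 nM Torin-1, an inhibitor of the kinase mTOR. For the drugs the sample labels give 24 h, and the study's own text gives a shorter time. Labels and methods also differ on whether mRNA was selected by its poly(A) tail or ribosomal RNA was depleted. Nothing says that the 2 samples of a group came from separate cultures, so the p-values measure the spread between these samples, which may be technical.

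PIKFYVE makes the phosphoinositide PI(3,5)P2 on endosomes and lysosomes. ESCRT complexes act in order to gather ubiquitinated receptors and bud them into the lumen of multivesicular endosomes, and VPS4 takes the ESCRT-III filament apart. Retromer and sorting nexins carry receptors back from endosomes to the Golgi or the cell surface. RAB5 with EEA1 and CORVET joins early endosomes, whereas RAB7 with HOPS joins late endosomes to lysosomes.

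The samples held between 9.30 and 13.6 M reads, estimated from the spacing of low values, so 3 reads correspond to between 0.227 and 0.329 CPM. That floor covers counting error only. The targeted gene itself (chr2:208266267-208358751 on GRCh38) was at 101 and 97.5 CPM with sgNC and at 10.9 and 12.5 CPM with sgPIKFYVE-1. Its level did not pass the test under apilimod (log2 fold change 0.22, limma with Benjamini-Hochberg adjustment, adjusted p = 0.060). Neuroendocrine and epithelial markers fixed for a check of the cell line were expressed, for example CHGA at 389 to 459 CPM and EPCAM at 818 CPM or more in the drug table, with NEUROD1 at 0 to 0.70 CPM as the exception. Of 10 markers of fibroblasts, leukocytes and endothelium, LUM and CD3E were at 0 in every sample, the fibroblast collagen COL1A1 was at 1.27 to 3.17 CPM in the drug table and 5.61 to 9.61 CPM in the knockdown table, the endothelial PECAM1 reached 3.76 CPM and the myeloid CD14 reached 2.18 CPM. The other 5 stayed under 1 CPM, and the part of such cells in the results was not tested.

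Among the 47 genes, levels per length in sgNC cells (CPM per kb of the longest coding transcript) spanned from 83.6 ± 0.35 for CHMP4B (SD, n = 2), the main subunit of the ESCRT-III filament, to 3.55 ± 1.15 for the ESCRT-I subunit VPS28. Of the 3 RAB5 genes, RAB5C was highest at 59.7 ± 0.90, followed by RAB5B at 32.0 ± 0.94 and RAB5A at 22.6 ± 1.21, also per kb. Not divided by length, RAB5B was above RAB5C, at 174 and 167 against 113 and 115 CPM. Their order thus rests on the transcript lengths used, 5.34 kb for RAB5B and 1.91 kb for RAB5C. The HOPS and CORVET core subunits VPS18 and VPS11 were next to the bottom of the order, at 6.96 ± 0.80 and 5.87 ± 0.48 CPM per kb. M6PR at 59.4 ± 3.10 and RAB7A at 57.9 ± 1.58 CPM per kb were near the top of the order and in sgNC cells did not differ beyond their spread. In DMSO cells M6PR was at 69.5 and 67.8 and RAB7A at 62.5 and 55.8 CPM per kb, without overlap. VPS28 was so low, between 0.945 and 7.49 CPM over the 10 samples, that its changes below rest on few reads.

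The knockdown was compared with sgNC to ask how endosomal sorting transcripts differ when PIKFYVE is repressed. Of the 47 genes, 21 passed the test at an adjusted p under 0.05, 16 higher and 5 lower, which is 44.7% of them, against 42.5% of the 13591 genes tested. In the higher direction the shares were 34.0% of the sorting genes and 21.6% of all genes tested, and in the lower direction 10.6% and 20.9%. The median log2 fold change of the 47 genes was 0.04, beside -0.004 for all genes tested. Here and below, changes are differences of log2(CPM + 1), which understate the change of low genes, and the test is limma's on all genes of a table. In bulk RNA, fewer cells with a transcript and less of it per cell cannot be told apart.

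The tether subunit VPS18, shared by HOPS and CORVET, had the largest rise. It lies at chr15:40894430-40903975 (GRCh38, plus strand), and no other annotated gene of the table overlapped it. VPS18 was at 29.3 and 24.9 CPM with sgNC and at 58.5 and 58.1 CPM with sgPIKFYVE-1. Both knockdown samples were well above both controls, a 2.15-fold higher mean (log2 fold change 1.08, SE 0.095, adjusted p = 2.52e-08). VPS41, which links HOPS to RAB7 membranes, was at 170 and 175 CPM in controls and at 235 and 251 CPM in the knockdown (log2 0.49, SE 0.053, adjusted p = 3.85e-07). VPS33A, the SNARE-binding subunit of both tethers, rose by less (log2 0.36, adjusted p = 0.0025). VPS39, the other HOPS-specific subunit, fell by 0.21 on the log2 scale, from 89.2 and 90.1 CPM to 82.1 and 72.6 CPM (adjusted p = 0.021), and did not pass without sgNC replicate 1 (adjusted p = 0.0626), sgNC replicate 2 (0.0840) or sgPIKFYVE-1 replicate 2 (0.194). The remaining tether genes VPS11, VPS16 and VPS8 did not pass, so 4 of 7 did (57.1%, against 42.5% of all genes tested), 3 of them higher. The median log2 fold change of the 7 was -0.06.

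RAB7A, the GTPase of late endosomes (chr3:128726122-128814796), was at 132 and 127 CPM with sgNC and at 194 and 197 CPM with sgPIKFYVE-1. The groups were far apart relative to their spread, and the mean was 1.503-fold higher (log2 0.58, SE 0.054, adjusted p = 5.55e-08). Of the RAB5 genes of early endosomes, RAB5C (log2 0.33) and RAB5B (log2 0.27) passed as higher, whereas RAB5A was at 59.3 and 55.0 CPM in controls and overlapped them at 49.6 and 57.8 CPM in the knockdown. The RAB5 effector EEA1 (chr12:92770637-92929331) went the other way, from 71.5 and 72.3 CPM to 46.8 and 51.9 CPM (log2 -0.54, SE 0.077, adjusted p = 1.57e-05). RAB11A, the GTPase of recycling endosomes, was at 246 and 237 CPM against 237 and 239 CPM and did not pass.

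The cation-dependent mannose 6-phosphate receptor M6PR, which carries new hydrolases from the Golgi to endosomes, was at 158 and 170 CPM in controls and at 248 and 235 CPM in the knockdown. It was 1.48-fold higher (log2 0.56, SE 0.055, adjusted p = 1.09e-07), with no overlap of the samples. SORT1, or sortilin, another receptor on this route, was 1.27-fold higher (log2 0.34, adjusted p = 3.38e-05). M6PR (chr12:8940363-8949955, minus strand) overlaps PHC1 on the opposite strand, and whether the counting used strand is not given in the sources used here. PHC1 moved the other way in the knockdown, at log2 -0.60.

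Of retromer's cargo-binding core, VPS35 and VPS26A were higher and VPS26B and VPS29 did not pass. VPS35 was at 225 and 232 CPM with sgNC and at 290 and 316 CPM with sgPIKFYVE-1 (log2 0.40, SE 0.052, adjusted p = 3.75e-06). VPS26A rose from 65.6 and 64.3 CPM to 86.1 and 93.3 CPM (log2 0.46, adjusted p = 2.90e-05). Its paralog VPS26B stayed in an overlapping range, 52.3 and 55.1 CPM against 54.7 and 48.1 CPM. Of the sorting nexins, SNX2, which forms tubules with SNX5 or SNX6, passed at 69.6 and 69.2 CPM against 88.0 and 91.8 CPM (log2 0.37, adjusted p = 0.000195). SNX1, SNX3, SNX5 and SNX6 did not pass.

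In the ESCRT series, 4 of 8 ESCRT-III genes passed (50%, against 42.5% of all genes tested). Of ESCRT-0, which gathers the ubiquitinated cargo first, 0 of 3 passed, too few genes to set against that share. Of ESCRT-0, STAM came nearest to the threshold, at 37.8 and 37.9 CPM against 44.6 and 43.7 CPM (log2 0.22, adjusted p = 0.0504). In ESCRT-III, CHMP1B was at 90.5 and 97.6 CPM with sgNC and at 129 and 138 CPM in the knockdown (log2 0.50, SE 0.064, adjusted p = 3.42e-06). CHMP2B (39.7 and 40.2 against 53.9 and 57.4 CPM, log2 0.47) and CHMP3 (83.4 and 92.8 against 119 and 122 CPM, log2 0.45) were higher as well. CHMP2A, the paralog of CHMP2B, was lower, at 88.3 and 99.6 CPM against 81.4 and 79.7 CPM (log2 -0.22, adjusted p = 0.0179). VPS4B (log2 0.30, 34.1 and 38.6 against 44.2 and 45.7 CPM) and the ESCRT-II subunit SNF8 (log2 0.34, 40.1 and 43.2 against 53.3 and 53.0 CPM) passed as higher. CHMP2A did not pass without sgNC replicate 2 or sgPIKFYVE-1 replicate 2 (adjusted p = 0.307 and 0.0736), nor VPS4B without sgNC replicate 1 or sgPIKFYVE-1 replicate 2 (0.181 and 0.0623).

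ESCRT-I had 2 of 7 genes past the test (28.6%, against 42.5% of all genes tested), both lower. VPS37A (chr8:17246571-17302427) was at 150 and 151 CPM in controls and at 116 and 119 CPM in the knockdown (log2 -0.35, SE 0.056, adjusted p = 4.81e-05). VPS28 was at 4.79 and 3.0045 CPM against 0.945 and 2.93 CPM (log2 -0.80, SE 0.312, adjusted p = 0.046), and its call was lost in 6 of 9 alternative settings, including without sgNC replicate 1 (adjusted p = 0.261) or sgPIKFYVE-1 replicate 1 (log2 -0.29, adjusted p = 0.473). TSG101, which binds ubiquitin and viral late domains, was at 90.4 and 92.7 CPM against 93.8 and 87.0 CPM and did not pass.

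CHMP1B (chr18:11851396-11854449) lies inside GNAL on the same strand, so reads of the shared bases could be assigned to either. GNAL fell from a mean of 287 to 114 CPM in the knockdown (log2 -1.32), opposite to CHMP1B. Similarly, VPS37A overlaps CNOT7 on the opposite strand, and CNOT7 did not pass in any of the 3 comparisons with a control, at log2 -0.05 in the knockdown, 0.02 under apilimod and -0.05 under Torin-1. The part of shared reads in the values of CHMP1B was not tested.

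**Figure D1:**
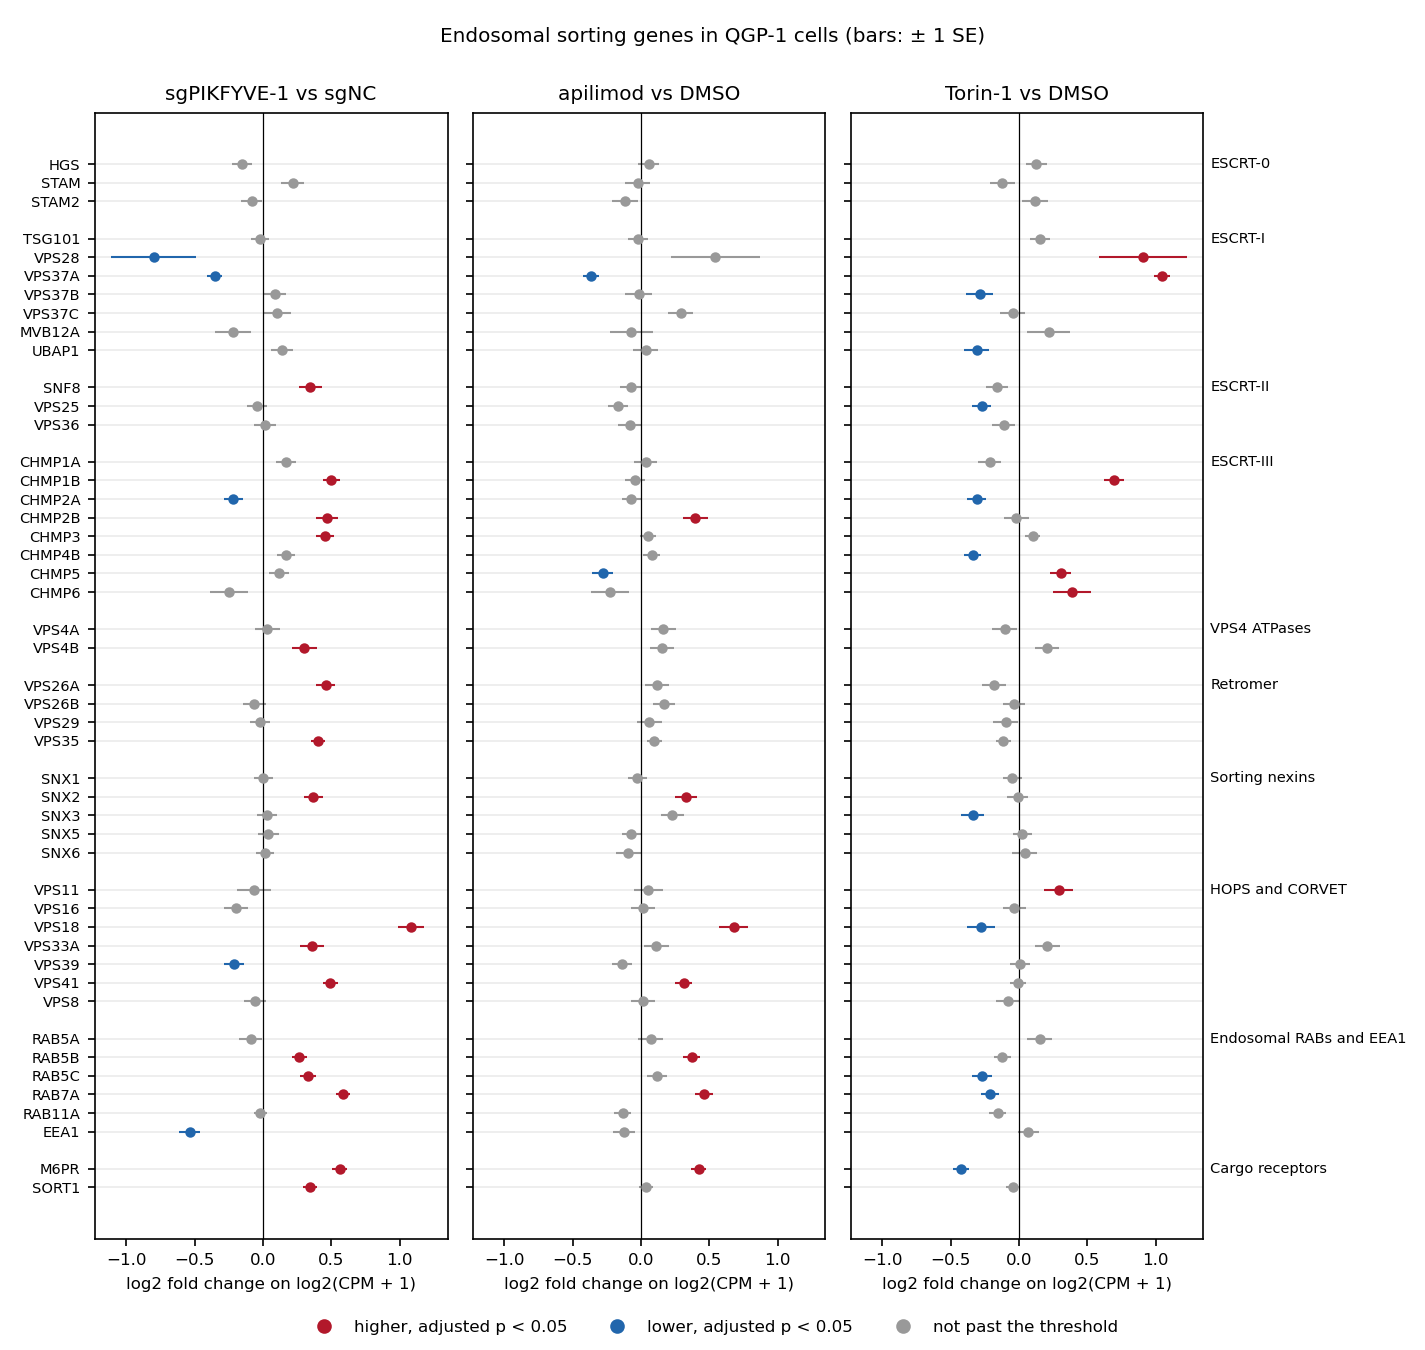
Log2 fold change on the log2(CPM + 1) scale of each of the 47 genes, by complex, for the knockdown against sgNC and for apilimod and Torin-1 against DMSO, with bars of 1 SE either way, red for higher and blue for lower genes past an adjusted p of 0.05, and grey for the others. VPS18 has the highest value in the knockdown (1.08) and under apilimod (0.68), and VPS37A has the highest under Torin-1 (1.04).

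Apilimod was compared with DMSO to ask the same of cells in which the kinase is inhibited and its transcript is not repressed. Fewer genes passed throughout the table: 9 of the 47 sorting genes (19.1%), 7 higher and 2 lower, against 8.54% of the 13520 genes tested. As higher, 14.9% of the sorting genes passed and 5.75% of all genes, and as lower 4.26% and 2.79%. The median log2 fold change was 0.03 over the 47 genes and -0.006 over all genes. Without apilimod replicate 2, only 5 of the 47 genes passed.

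VPS18 again had the largest difference, at 27.3 and 27.5 CPM in DMSO and 48.3 and 41.0 CPM with apilimod (1.63-fold, log2 0.68, SE 0.104, adjusted p = 6.50e-04). The treated samples differed from each other by more than the controls did, and both stood above them. RAB7A was at 140 and 125 CPM in DMSO and 185 and 181 CPM with apilimod (log2 0.46, SE 0.064, adjusted p = 2.79e-04). M6PR was at 191 and 187 CPM against 251 and 257 CPM (log2 0.42, SE 0.056, adjusted p = 1.85e-04). These 3 genes, a tether, a late-endosomal GTPase and a hydrolase receptor, were the ones that passed in every one of 10 alternative settings. PHC1, which overlaps M6PR, was at log2 0.03 under apilimod and did not pass.

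CHMP2B rose from 38.4 and 35.0 CPM to 46.3 and 51.0 CPM (log2 0.40, adjusted p = 0.0138). RAB5B rose from 152 and 143 CPM to 196 and 186 CPM (log2 0.37, adjusted p = 0.00124), and SNX2 from 70.4 and 69.0 CPM to 81.1 and 95.1 CPM (log2 0.33, adjusted p = 0.0195). VPS41 rose from 184 CPM in both controls to 218 and 240 CPM (log2 0.31, adjusted p = 0.00437). These 4 are an ESCRT-III filament subunit, an early-endosomal GTPase, a tubule-forming nexin and a HOPS subunit. RAB5B passed with any 1 sample left out. CHMP2B did not pass without DMSO replicate 2 or apilimod replicate 2 (adjusted p = 0.159 and 0.116), SNX2 without DMSO replicate 1, DMSO replicate 2 or apilimod replicate 2 (0.0940, 0.133 and 0.181), and VPS41 without apilimod replicate 2 (0.0569).

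The 2 genes that fell with apilimod were of the ESCRT series. VPS37A was at 156 and 163 CPM in DMSO and at 121 and 126 CPM with apilimod (log2 -0.37, SE 0.059, adjusted p = 0.00103). CHMP5, an ESCRT-III-associated protein that recruits the VPS4 cofactor VTA1, was at 59.8 and 62.9 CPM against 50.7 and 49.96 CPM (log2 -0.28, adjusted p = 0.0345). The CHMP5 call was lost in 6 of 10 alternative settings, leaving out any 1 of the DMSO or apilimod samples among them (adjusted p between 0.108 and 0.262). No gene of ESCRT-0, ESCRT-II, the VPS4 ATPases or retromer passed under apilimod. Their largest differences were STAM2 at log2 -0.12 (53.0 and 54.1 against 44.5 and 54.6 CPM), VPS25 at log2 -0.17 (69.0 and 70.3 against 63.1 and 60.5 CPM), VPS4A at log2 0.16 (49.6 and 53.9 against 62.1 and 54.2 CPM) and VPS26B at log2 0.17 (48.3 and 53.1 against 57.0 and 57.1 CPM).

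In the knockdown and with apilimod, 8 sorting genes passed both times, each in the same direction, which is 38.1% of the 21 in the knockdown list and 88.9% of the 9 in the apilimod list. The higher 7 were VPS18, RAB7A, M6PR, CHMP2B, VPS41, SNX2 and RAB5B, and VPS37A was lower. That is 17.0% of the 47 genes, against 5.24% of the 13235 genes tested in both tables. Over all genes, 812 passed in both comparisons, 14.1% of the knockdown list and 70.3% of the apilimod list, and 694 of those had 1 direction. Without apilimod replicate 2 the 8 sorting genes became 5. These comparisons share no samples, and the tables were normalized separately. A further 13 of the 47 genes (27.7%, against 36.7% of all genes) passed in the knockdown and not under apilimod, EEA1 among them (49.4 CPM in both apilimod samples against 51.7 and 56.2 CPM, log2 -0.12, adjusted p = 0.422), and the difference between the comparisons was not tested. CHMP1B was at 99.1 and 90.1 CPM in DMSO and 86.7 and 96.7 CPM with apilimod, which overlap.

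**Figure D2:**
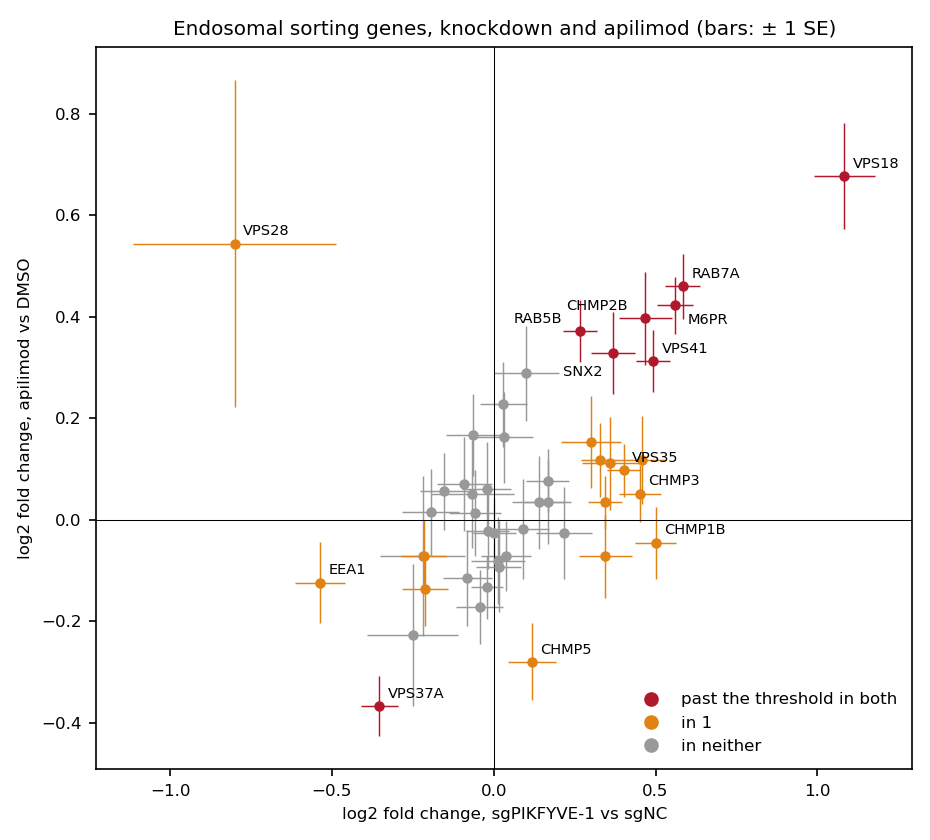
Log2 fold change of the 47 genes in the knockdown (horizontal) and under apilimod (vertical), with bars of 1 SE either way; colours mark genes past the threshold in both comparisons, in 1 or in neither. The 7 genes higher in both lie at the upper right with VPS18 outermost, VPS37A lies at the lower left, and VPS28 has the widest bars.

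Promoters were read to show what sequence the genes that moved together hold near their starts. Windows of 250 bases before to 50 after the start (RefSeq, GRCh38.p14) were given for 39 of the 47 genes and not for CHMP3, CHMP6, VPS18, VPS26A, VPS28, VPS33A, VPS37A or VPS37C. The E-box CACGTG, which reads the same on both strands and is the core of the longer TCACGTGA, bound by the lysosomal regulators TFEB and TFE3, was in the windows of 7 of 39 genes (17.9%) and of 8.77% of 27305 genes with a window. TCACGTGA was found for 2 of the 39 (5.13%) and for 1.18% of all genes. The sterol element TCACNCCAC, searched on both strands, was found for 0 of the 39 and for 1.39% of all genes. The 27305 genes were not limited to those of at least 1 CPM, as the 39 were, so these shares compare unlike sets. Of the 7 genes higher in both comparisons, 6 had a window and 1 of them, M6PR, held CACGTG. RAB5A and VPS11, which hold the longer form, passed as higher in neither. The stretches of 30 bases around these E-boxes are given on the gene's strand, 5′ to 3′, with CACGTG in capitals, for M6PR from chr12:8949473-8949502 (minus strand), for RAB5A from chr3:19946964-19946993 and for VPS11 from chr11:119067761-119067790 (both plus strand).
M6PR: agtttcccacgaCACGTGagtgtgaggggc
RAB5A: cactcgcagggtCACGTGacatcctgcctc
VPS11: cCACGTGattcgctggctcagctCACGTGa
The E-box of M6PR began 80 bases before the RefSeq start, that of RAB5A 121 bases before, and the first of the pair of VPS11 56 bases before. RefSeq starts differ from the ends of the GENCODE spans given for the genes. The stretches of M6PR and VPS11 lie inside those spans (chr12:8940363-8949955 and chr11:119067692-119081978). A match describes the letters in the window and is not evidence of binding.

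Torin-1 was compared with the same DMSO samples, to set inhibition of mTOR beside that of PIKfyve. Of the 47 genes, 16 passed (34.0%), 6 higher and 10 lower, against 38.5% of all genes tested. As higher, 12.8% of the sorting genes passed and 16.6% of all genes, and as lower 21.3% and 21.8%. With quantile normalization 16 also passed, but 9 were higher and 7 lower, and 12 of them were shared with the values as deposited. The median log2 fold change of the 47 genes was -0.04 as deposited (all genes -0.012) and 0.01 after quantile normalization. Leaving out DMSO replicate 1 left 8 calls, DMSO replicate 2 left 9 and Torin-1 replicate 2 left 10.

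In ESCRT-I 4 of 7 genes passed (57.1%), 2 higher and 2 lower. In ESCRT-III 5 of 8 did (62.5%), 3 higher and 2 lower. Of all genes tested 38.5% passed, 16.6% as higher and 21.8% as lower. VPS37A was at 156 and 163 CPM in DMSO and at 316 and 345 CPM with Torin-1 (2.07-fold, log2 1.04, SE 0.059, adjusted p = 1.55e-08), the largest change of the 47 genes in this comparison. VPS37B, which takes the place of VPS37A in other ESCRT-I complexes, was lower, at 34.6 and 35.6 CPM against 26.5 and 30.8 CPM (log2 -0.29, adjusted p = 0.0338), and did not pass after quantile normalization or without DMSO replicate 1, DMSO replicate 2 or Torin-1 replicate 1 (adjusted p = 0.101, 0.149 and 0.242). VPS37C was at 28.8 and 27.9 CPM against 27.2 and 27.6 CPM and did not pass. UBAP1, the ESCRT-I subunit for endosomal cargo, fell from 41.9 and 44.9 CPM to 35.5 and 34.1 CPM (log2 -0.31, adjusted p = 0.0163), but did not pass without DMSO replicate 2 or Torin-1 replicate 2 (adjusted p = 0.127 and 0.0692). UBAP1 overlaps KIF24 on the opposite strand, which was higher with Torin-1 (log2 0.46). VPS28 was at 3.85 and 1.91 CPM against 4.84 and 7.49 CPM (log2 0.91, SE 0.323, adjusted p = 0.0389), a call lost in 5 of 10 settings, leaving out DMSO replicate 2 or Torin-1 replicate 2 among them (adjusted p = 0.279 and 0.225).

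In ESCRT-III, CHMP1B rose from 99.1 and 90.1 CPM to 153 and 154 CPM (1.62-fold, log2 0.69, SE 0.071, adjusted p = 5.19e-06), and its host gene GNAL fell (log2 -1.17). CHMP5 rose from 59.8 and 62.9 CPM to 73.1 and 78.9 CPM (log2 0.30, adjusted p = 0.00606). CHMP6, which starts the filament from ESCRT-II, rose from 13.9 and 15.1 CPM to 20.2 and 18.4 CPM (log2 0.39, adjusted p = 0.0425). CHMP4B fell from 126 and 127 CPM to 99.8 and 100.2 CPM (log2 -0.34, SE 0.062, adjusted p = 7.01e-04), and CHMP2A from 77.2 and 73.1 CPM to 60.5 and 60.4 CPM (log2 -0.31, adjusted p = 0.00341). In this complex CHMP1B, CHMP5 and CHMP6 were thus higher and CHMP4B and CHMP2A lower, while CHMP1A, CHMP2B and CHMP3 did not pass. VPS25 of ESCRT-II was lower (69.0 and 70.3 against 58.0 and 56.8 CPM, log2 -0.27). CHMP6 did not pass with any 1 sample left out (adjusted p between 0.0621 and 0.189), nor did CHMP5 without DMSO replicate 1 or Torin-1 replicate 2 (0.0663 and 0.0503), CHMP2A without DMSO replicate 1 (0.0528) or VPS25 without DMSO replicate 2 (0.0713).

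M6PR fell from 191 and 187 CPM to 135 and 146 CPM with Torin-1 (log2 -0.42, SE 0.056, adjusted p = 5.20e-05), while PHC1, across from it, rose (log2 0.39). SNX3, a nexin that binds retromer, fell from 61.9 and 60.7 CPM to 45.4 and 51.5 CPM (log2 -0.34, adjusted p = 0.00603), and RAB5C from 109 and 103 CPM to 91.4 and 83.9 CPM (log2 -0.27, adjusted p = 0.00961). RAB7A was lower at 115 and 114 CPM against 140 and 125 CPM (log2 -0.21, adjusted p = 0.0177), a call lost after quantile normalization and without DMSO replicate 1 (log2 -0.13, adjusted p = 0.252) or Torin-1 replicate 2 (adjusted p = 0.0558). VPS18 was at 21.9 and 23.1 CPM against 27.3 and 27.5 CPM (log2 -0.28, adjusted p = 0.0497), a call lost in 8 of 10 settings, each left-out sample (adjusted p between 0.0725 and 0.172) and quantile normalization among them. VPS11 was higher (20.5 and 19.4 against 24.4 and 24.7 CPM, log2 0.29, adjusted p = 0.0442), and did not pass with any 1 sample left out (adjusted p between 0.0998 and 0.203). SNX3 did not pass without Torin-1 replicate 1 (0.0587), nor RAB5C without DMSO replicate 1 or Torin-1 replicate 2 (adjusted p = 0.0874 and 0.0687). No gene of ESCRT-0, the VPS4 ATPases or retromer passed. Their largest differences were HGS at log2 0.13 (82.6 and 77.9 against 88.8 and 86.6 CPM), VPS4B at log2 0.20 (32.6 and 35.3 against 39.5 and 39.0 CPM) and VPS26A at log2 -0.18 (84.7 and 84.4 against 67.0 and 82.6 CPM).

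**Figure D3:**
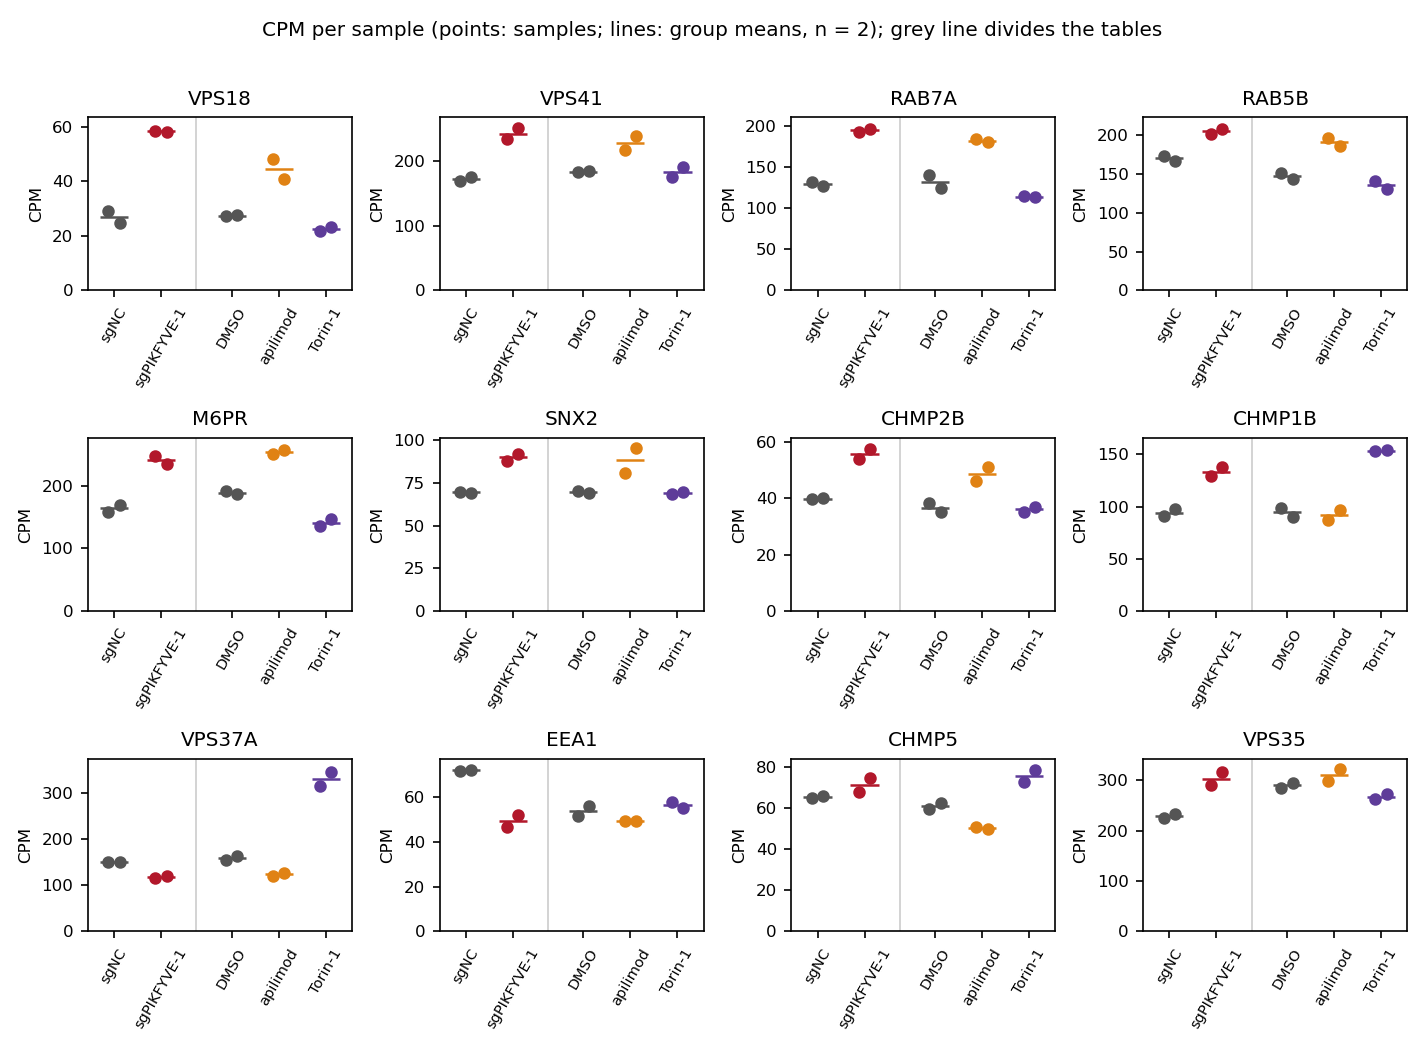
CPM in each of the 10 samples for genes with large changes, 2 points to a group with a line at the group mean, each panel with its own CPM axis from 0 and a grey line between the tables. VPS18, RAB7A and M6PR are higher with sgPIKFYVE-1 and with apilimod than in the controls, and VPS37A has a mean of 330.4 CPM with Torin-1 against 123.5 CPM with apilimod.

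Since both drugs share the DMSO samples, they were compared directly, apilimod minus Torin-1. Of the 47 genes, 22 passed (46.8%), 18 higher with apilimod and 4 higher with Torin-1, against 46.7% of all genes tested. In the 2 directions all genes gave 26.2% and 20.5%, and the sorting genes 38.3% and 8.51%. After quantile normalization 22 passed too, 12 higher with apilimod and 10 higher with Torin-1, of which 16 were shared, so the split between directions depended on the scaling.

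The order of the drugs was clearest for VPS37A, at 121 and 126 CPM with apilimod and 316 and 345 CPM with Torin-1 (log2 -1.41, SE 0.059, adjusted p = 2.89e-10). VPS18 (48.3 and 41.0 against 21.9 and 23.1 CPM, log2 0.95, adjusted p = 5.10e-06), M6PR (251 and 257 against 135 and 146 CPM, log2 0.85, adjusted p = 3.75e-08) and RAB7A (185 and 181 against 115 and 114 CPM, log2 0.67, adjusted p = 1.37e-06) were higher with apilimod. CHMP1B (log2 -0.74), CHMP6 (13.9 and 10.8 against 20.2 and 18.4 CPM, log2 -0.61) and CHMP5 (log2 -0.58) were higher with Torin-1. These 3 act on the ESCRT-III filament, as does CHMP4B, which was higher with apilimod (139 and 129 against 99.8 and 100.2 CPM, log2 0.42). SNX3 (68.8 and 75.3 against 45.4 and 51.5 CPM, log2 0.56), RAB5B (196 and 186 against 141 and 130.3 CPM, log2 0.49), CHMP2B (46.3 and 51.0 against 35.3 and 36.9 CPM, log2 0.42) and RAB5C (log2 0.39) were also higher with apilimod, as were the retromer genes VPS26A (log2 0.30) and VPS35 (log2 0.21). VPS26A did not pass without Torin-1 replicate 1 or apilimod replicate 2 (adjusted p = 0.149 and 0.0632), VPS35 did not without apilimod replicate 2 (0.0532), and neither passed after quantile normalization. Against DMSO, 5 of the 47 genes passed as higher with one drug and lower with the other (10.6%, against 3.54% of all genes), namely VPS18, RAB7A, M6PR, VPS37A and CHMP5. These 5 also passed in the direct comparison, which is the difference of those same estimates and so adds no separate support. Without DMSO replicate 1 or without Torin-1 replicate 2 the 5 became 2, M6PR and VPS37A, and without DMSO replicate 2 they became 3, with RAB7A.

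**Figure D4:**
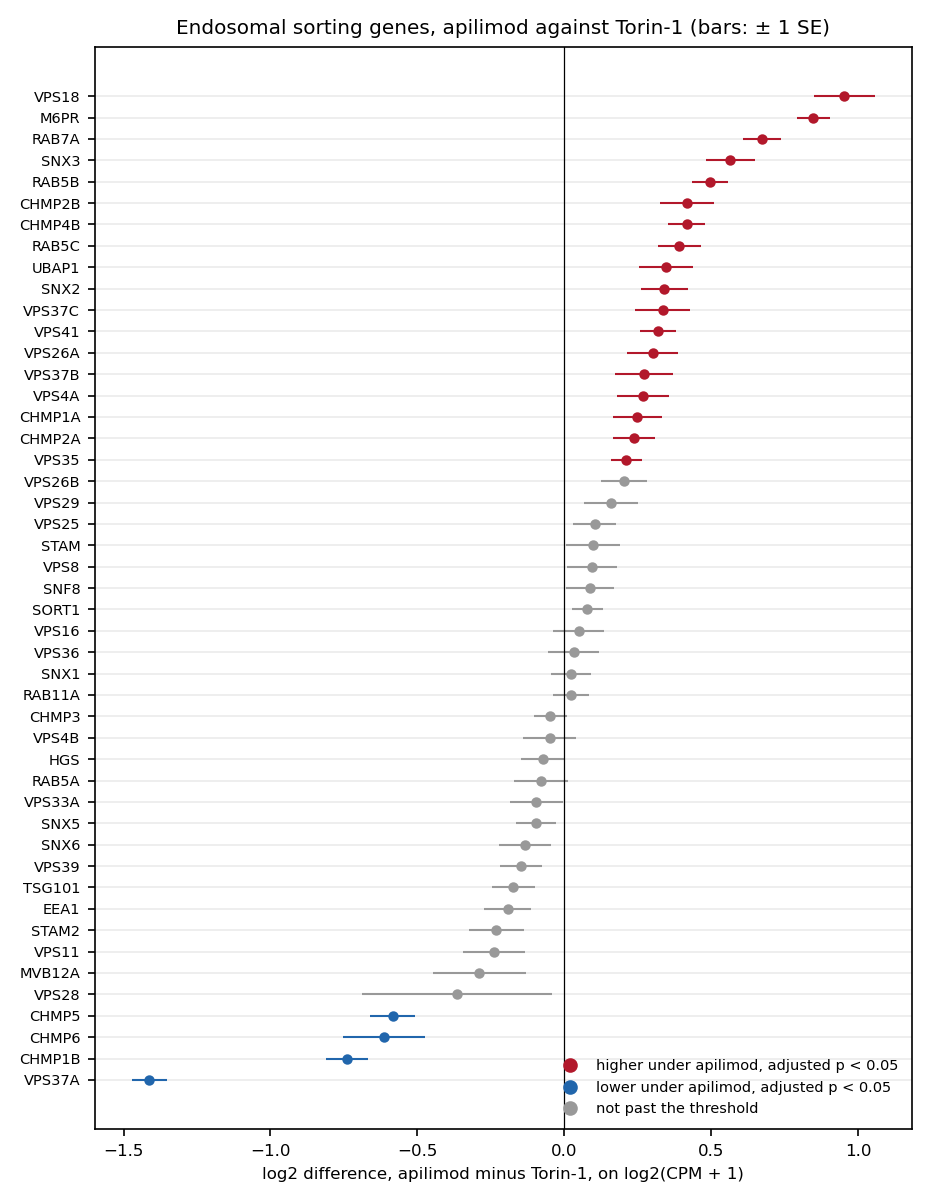
Log2 difference, apilimod minus Torin-1 on the log2(CPM + 1) scale, of each of the 47 genes in order of size, with bars of 1 SE either way, red where apilimod was higher, blue where Torin-1 was higher and grey where the gene did not pass. The 4 blue genes, from VPS37A at -1.41 to CHMP5 at -0.58, stand at the bottom, and VPS18 at 0.95, M6PR at 0.85 and RAB7A at 0.67 stand at the top.

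In the 3 comparisons with a control, 4 genes passed in all (VPS18, RAB7A, M6PR and VPS37A), 8.51% of the 47 against 3.81% of the 13235 genes tested in both tables. Without DMSO replicate 1, without Torin-1 replicate 2 or after quantile normalization they were 2, M6PR and VPS37A. Of the 47 genes, 18 (38.3%) passed in none, against 37.9% of all genes. These included all of ESCRT-0 (HGS, STAM and STAM2), TSG101, VPS29, VPS26B, SNX1, SNX5, SNX6, VPS16, VPS8, RAB5A and RAB11A. VPS18, RAB7A, M6PR and RAB5C made up the 4 that passed as higher in the knockdown and lower with Torin-1 (8.51%, against 10.4% of all genes), and 1 was left without DMSO replicate 1 and 2 without Torin-1 replicate 2. CHMP1B was the gene higher in the knockdown and with Torin-1 and not past the test with apilimod.

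Other genes of the pathway, 63 tested of 65 listed, were taken from a list of accessory ESCRT proteins, WASH and retriever subunits, further tethers, RAB regulators and sorting receptors. In the knockdown 25 of 63 passed, 16 higher and 9 lower, which is 39.7% against 42.5% of all genes tested. The highest were WASHC2A, a WASH subunit that binds retromer (log2 0.54), the cation-independent mannose 6-phosphate receptor IGF2R (log2 0.53) and SNX12 (log2 0.52). The lowest were VPS37D (log2 -0.84, at 5.01 and 4.02 against 2.74 and 1.51 CPM), the deubiquitinase STAMBPL1 (log2 -0.72) and WASHC1 (log2 -0.61, SE 0.230). WASHC1 was at 9.87 and 9.99 CPM with sgNC and at 8.82 and 4.19 CPM with sgPIKFYVE-1, so 1 sample made most of its fall. Of the 7 sorting receptors and adaptors among them, 6 passed, 2 higher and 4 lower, beside 21.6% and 20.9% of all genes in those directions. With apilimod 6 of 63 passed (9.52%, against 8.54% of all genes), each as higher, led by PLEKHM1, a RAB7 effector at 4.12 and 4.18 against 7.81 and 10.03 CPM (log2 0.94), WASHC2C (log2 0.75) and IGF2R (log2 0.64). In the knockdown PLEKHM1 leaned the other way and did not pass (log2 -0.72, adjusted p = 0.0513). It was at 10.9 and 5.59 CPM with sgNC and at 6.58 and 2.85 CPM with sgPIKFYVE-1. WASHC2C and IGF2R passed as higher there too (log2 0.30 and 0.53). WASHC2A and WASHC2C are near-identical copies, so the split of reads between them is uncertain.

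IGF2R, the partner of M6PR on the same route, was at 144 and 140 CPM in DMSO, 236 and 208 CPM with apilimod and 211 and 193 CPM with Torin-1. It was thus higher with both drugs (Torin-1 log2 0.51, adjusted p = 5.25e-05), where M6PR was lower with Torin-1. The direct difference of the drugs in IGF2R did not pass (log2 0.14, SE 0.067, adjusted p = 0.114). With Torin-1, 18 of 63 passed (28.6%, against 38.5% of all genes), 9 higher and 9 lower, or 9 and 6 after quantile normalization, from TBC1D15, which inactivates RAB7 (log2 0.86, 252 and 274 against 456 and 504 CPM), PLEKHM1 (log2 0.54) and SORL1 (log2 0.54) down to SNX4 (log2 -0.40), VTA1 (log2 -0.46) and COMMD1 (log2 -0.57). Directly, 31 of 63 passed (49.2%, against 46.7% of all genes), 24 higher with apilimod, led by MON1A (log2 1.019), WASHC4 (log2 0.51) and COMMD1 (log2 0.48), and 7 higher with Torin-1, led by TBC1D15 (log2 -0.84), SORL1 (log2 -0.70) and VIPAS39 (log2 -0.56). After quantile normalization the 24 and 7 became 17 and 11. MON1A was low, at 10.3 and 8.09 CPM with apilimod against 5.96 and 2.59 CPM with Torin-1 (SE 0.255). It passed against DMSO with neither drug.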

How the data were processed

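RNA-seq covered 5 groups of 2 samples of QGP-1. The authors demultiplexed with bcl2fastq 2.20, trimmed with Trimmomatic, quantified transcripts (the tool is not given in the sources used here), summed them to genes and scaled by TMM in edgeR, on hg38 per the processing notes. What they deposited is a normalized signal close to CPM, in 1 table per experiment, and columns sum to between 972493 and 1024332. The design assumed plain CPM, and the test was kept. Of low values, 71.2% to 73.9% were whole reads within 0.02 read, too few for a count model.

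Only genes whose mean reached 1 CPM in their table entered the fit. Values were taken as log2(CPM + 1) and fitted by limma 3.58.1 (lmFit, eBayes with a trend; R 4.3.3), with 4 samples in the knockdown fit and all 6 of the drug table in the other, and p-values were Benjamini-Hochberg adjusted over every gene fitted, at 0.05. The procedure was tested on simulated data. The members and lists were chosen with earlier results of these data known. Per-sample values are given for the 10 largest changes per comparison among genes past the threshold without overlap and for the largest of each complex. Of the other endosomal genes, the 3 highest and 3 lowest past the threshold are named. The values of IGF2R across the drugs were added after they were seen. Gene positions are those of GENCODE 29 on GRCh38. Promoters are RefSeq's. Alternatives were a pseudocount of 0.1, no filter, quantile normalization, no variance trend, a replicate block, fits on the compared groups and each sample left out. The figures used matplotlib 3.10.9 (Python 3.11.15).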

Additional observations from a re-analysis of the deposited data

How the results depend on the processing

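No gene past the threshold passed in the opposite direction under any alternative. Of the 47 genes, the 9 that passed with apilimod became 5 without a filter on low values and 3 without a variance trend, and the 16 with Torin-1 became 10 and 9. With each sample left out in turn, 18 to 23 passed in the knockdown (21 with all), 5 to 8 with apilimod, 8 to 11 with Torin-1 and 19 to 21 in the direct comparison (22 with all). In every alternative 15 of the 21 genes of the knockdown passed, 3 of 9 with apilimod, 4 of 16 with Torin-1 and 14 of 22 directly. The 4 genes that passed in all 3 comparisons with a control became 2 without a filter and 1 without a trend, the 5 opposite under the drugs 2 and 1, and the 8 shared by knockdown and apilimod 5 and 3. Over all genes, the 1155 that passed with apilimod became 565 without a filter, 466 without a trend and 597 to 835 with a sample left out, and the 5772 of the knockdown became 3709 without a trend. The cause was not tested. Where 1 sample of a group was left, it was assumed to vary like the other groups. Deviations of samples that share a replicate number were weakly correlated across genes (0.037 in the knockdown and 0.043 to 0.104 with the drugs). The number was not taken as a pairing, but a correlation over all genes cannot show that none share a replicate effect. With a replicate block, 23, 11, 20 and 27 of the 47 genes passed in the knockdown, apilimod, Torin-1 and direct comparisons. Without it these were 21, 9, 16 and 22. Of all genes, 1756 passed with apilimod with the block and 1155 without it. A shared replicate effect was not tested further. With 2 samples a group, both depth and the spread between samples limit low genes such as VPS28. It was at 6.85 and 2.82 CPM with apilimod and at 0.945 and 2.93 CPM with sgPIKFYVE-1.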
